A study of Mus musculus with 30 samples.

Results

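Liver transcripts of male mice gavaged with a root decoction of the chicory genotype G12 were compared with those of male mice gavaged with water. The 6 mice, 3 in each group, were chosen by their labels from the 30 mice of the series, and each was measured on 1 array. Both groups were 8 weeks old at the start, ate standard chow and received 500 µl by gavage each day for 30 days. The G12 decoction carried the equivalent of 10 mg of root flour per mouse and day, and the water group is control 1, which served the G12 and G35 mice. The series also holds males given G35, a second chicory genotype, males given inulin with their own water group (control 2), and the same 5 groups of females. Strain and hour of sampling were not given in the sources used here. RNA came from hepatic tissue without separation of its cells, so fewer cells of a type and less RNA per cell cannot be told apart.

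Chicory roots store inulin, a fructan that mammals do not digest and gut bacteria ferment, together with bitter sesquiterpene lactones and phenolic acids. The liver receives what the gut absorbs through the portal vein and answers feeding through nuclear receptors, insulin and glucagon, and a circadian clock in its own cells. Cytochrome P450 enzymes of hepatocytes oxidise steroids, fatty acids and plant compounds, and many of them differ between the sexes in mice.

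Median intensity of the 6 arrays ran from 190 to 436, and precision is limited by there being 3 arrays in each group. Control 1 arrays lay on slides 5, 4 and 1 and G12 arrays on slides 5, 5 and 1. All 3 control arrays sat at block position 4 of their slide and no G12 array did, so position and gavage cannot be told apart. The first principal component of the 6 arrays (41.6% of the variance) set the slide 1 arrays apart from the others. The second (26.7%) set G12 replicate 1, at -26.5, apart from the other 5, at -1.71 to 10.2. Hepatocyte markers were present in both groups, at a summed log2 level of 18.4 to 18.8 in the water group and 18.3 to 18.8 in the G12 group. Of the 14 measured, 4 were higher with G12, and the median difference was -0.17.

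No gene of 8996 differed between G12 and water at an adjusted p under 0.05 (limma, Benjamini-Hochberg), so percent called was 0, and the lowest adjusted p was 0.744. At an unadjusted p under 0.05 there were 354 genes, or 3.94%, of which 245 (2.72%) were higher and 109 (1.21%) lower with G12. A threshold of 0.05 would mark about 450 of the 8996 genes if none differed. The 2 groups did not overlap for 504 genes that were higher (5.6%) and 417 that were lower (4.64%). Such separation was thus common over all genes and does not by itself mark out a gene named below. The genes named below as higher or lower are therefore described by their values in the 6 mice, and none of the differences between G12 and water in males passed the test.

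Per1, a repressor of the circadian clock, had the lowest p. Its normalised log2 intensity was 8.10, 7.91 and 8.36 in the 3 water males and 9.07, 8.87 and 9.09 in the 3 G12 males. Every G12 male lay above every water male. The difference was 0.88 ± 0.20 (SE; 95% interval 0.46 to 1.31), a 1.84-fold higher level, with an unadjusted limma p of 0.000227. On slide 5 it was 0.87 and on slide 1 it was 0.72. The water males of control 2, from the inulin experiment, read 8.32, 8.70 and 8.96.

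Cyp4a14, a fatty acid omega-hydroxylase induced through PPAR-alpha, was bright in every liver. It read 14.17, 14.28 and 14.75 with water and 14.90, 15.55 and 15.38 with G12. The groups did not overlap, and the difference was 0.88 ± 0.22. Without G12 replicate 1, which was its lowest G12 mouse, the difference was 1.06 ± 0.24.

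Of the other 8 genes among the 10 with the lowest p on the higher side, Ncl, the nucleolar protein nucleolin, read 9.36, 8.96 and 9.05 with water and 9.91, 9.96 and 9.95 with G12, a difference of 0.82 ± 0.19, but its second, dimmer probe differed by 0.09 ± 0.12. The 3 G12 mice were nearly equal on the brighter probe. On it the water males of control 2 read 10.51, 10.36 and 10.32, above every G12 male. Herpud1, which serves the degradation of misfolded proteins at the endoplasmic reticulum, read 12.26, 11.99 and 11.71 with water and 12.25, 12.83 and 12.87 with G12 (0.67 ± 0.19). Its groups overlapped, since G12 replicate 1 lay at the level of the highest water mouse. In control 2 the water males read 13.09, 13.17 and 13.45, again above every G12 male. Parp16, an ADP-ribosyltransferase of the endoplasmic reticulum, was higher by 0.84 ± 0.23, the forkhead factor Foxp1 by 0.66 ± 0.18, and Kctd2, an adaptor of cullin ubiquitin ligases, by 0.65 ± 0.16. Ankhd1 (0.75 ± 0.21), Resf1 (0.51 ± 0.14) and Emsy (0.46 ± 0.13) complete these 10. The second Foxp1 probe gave 0.24 ± 0.13. For Kctd2, Foxp1 and Ankhd1 the water males of control 2 lay below every G12 male. For Parp16, Resf1 and Emsy they lay within or near the G12 range.

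With slide as a fixed block, 3 further genes were among the 5 with the lowest p on the higher side. Irf2bp2, a transcriptional corepressor, read 8.87, 9.43 and 9.27 with water and 10.28, 9.70 and 10.51 with G12. Its groups did not overlap. The difference was 0.98 ± 0.35 without slide and 1.09 with it, where the unadjusted limma p was 2.63e-05 and the lowest adjusted p of any gene was 0.237. Its second probe differed by 0.37. Akap13, an anchor protein of kinase A, was higher by 0.79 ± 0.22, with its other probes at 0.97 and 0.60. Cebpb, a transcription factor of the liver's acute response, was higher by 0.42 ± 0.23, and its groups overlapped.

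**Figure D1:**
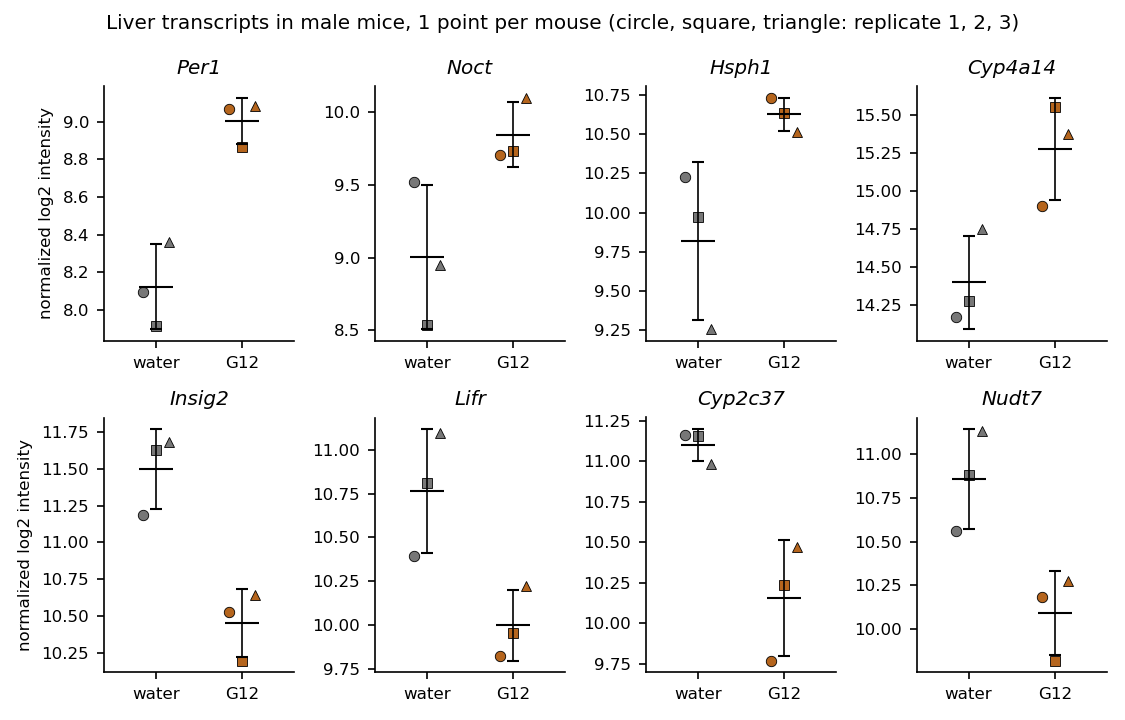
Normalised log2 intensity (y axis) of 8 liver transcripts in the 3 water and the 3 G12 males (x axis), 1 point per mouse, with the mean and SD as bars. The groups do not overlap in any of the 8 panels, with Per1, Noct, Hsph1 and Cyp4a14 higher and Insig2, Lifr, Cyp2c37 and Nudt7 lower in the G12 mice.

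On the lower side the gene with the largest difference of the 10 with the lowest p, after Tox4, was Pax2, a paired-box factor known from kidney development. It read 13.35, 13.98 and 13.31 with water and 12.69, 11.99 and 12.50 with G12 (-1.15 ± 0.32). All 3 G12 mice lay below these water mice. The water males of control 2, from the inulin experiment, read 11.52, 11.43 and 11.59, below every G12 male. What the probe detects in liver was not tested. Tox4, a subunit of a phosphatase complex on chromatin, differed by -1.60 ± 0.48 on its brighter probe and by 0.11 ± 0.13 on the other, so its probes disagree.

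Insig2, which holds the sterol sensor SCAP with its SREBP partner in the endoplasmic reticulum, read 11.18, 11.62 and 11.68 with water and 10.53, 10.20 and 10.64 with G12. The groups did not overlap. The difference was -1.04 ± 0.29, so the level with water was 2.06 times that with G12, and the second probe gave -0.88 ± 0.39. It was -0.82 on slide 5 and -1.04 on slide 1.

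Lifr, the receptor of leukemia inhibitory factor, read 10.39, 10.81 and 11.09 with water and 9.82, 9.95 and 10.22 with G12. The G12 mice were all lower, by 0.77 on average (difference -0.77 ± 0.22), while the dimmer second probe differed by -0.13 ± 0.17. Il6ra, the receptor chain that binds interleukin 6, went the other way, with 10.54, 9.88 and 10.31 against 10.95, 11.08 and 11.42 (0.91 ± 0.26). Its groups did not overlap either. Of the 14 measured genes of the LIF and interleukin 6 receptor list these were the only ones at an unadjusted p under 0.05, and the list's median difference was 0.05.

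Susd4, a regulator of complement, was lower by 0.77 (difference -0.77 ± 0.22), the kinase Nlk by 0.49 (-0.49 ± 0.14) and the nucleolar protein Nol7 by 0.52 (-0.52 ± 0.16). Nlk (7.78, 7.24 and 7.26 with water) and Nol7 (7.17, 6.39 and 6.53) were dim beside the median gene, at 8.03. Water replicate 1 was the highest mouse for both. With single mice left out their differences were as small as -0.32 and -0.28. H2-Q10, a secreted class I molecule made by the liver, was among the 5 lowest p with slide and differed by -0.31 ± 0.31 without it, with overlapping groups. Iqsec3 had the largest lower difference of the genes at or above the median level whose groups did not overlap. It read 10.53, 11.55 and 10.41 with water and 9.80, 10.27 and 8.37 with G12 (-1.35 ± 1.00), a difference within 2 standard errors. In control 2 its water males read 6.57, 6.34 and 6.37, below every G12 male.

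The circadian clock list held 17 measured genes, of which 14 were higher with G12, against 50.4% of all genes. Its median difference was 0.23, against 0.00 over all genes tested. At an unadjusted p under 0.05, 3 were higher (Per1, Noct and Usp2) and 0 lower, and 4 had groups that did not overlap, all higher. Over all genes 2.72% were higher at that p and 5.6% higher without overlap.

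Noct, a rhythmic phosphatase of liver metabolism, read 9.52, 8.54 and 8.95 with water and 9.70, 9.73 and 10.10 with G12 (0.84 ± 0.24). Usp2, a rhythmic deubiquitinase, read 9.34, 8.44 and 9.28 against 9.62, 9.47 and 9.69 (0.57 ± 0.27). Ciart, a repressor bound to the clock's activator, read 6.29, 5.86 and 6.11 against 6.63, 6.55 and 6.49 (0.47 ± 0.24). Its level lay below that of the median gene, 8.03. In none of the 3 genes did the groups overlap, and in each of them water replicate 1 was the highest water mouse. Noct differed by 0.20 on slide 5 and by 1.15 on slide 1. In the water males of control 2, from the inulin experiment, Noct read 10.55, 10.67 and 10.84, above every G12 male. There Usp2 read 9.40, 9.67 and 9.44, within or near the G12 range, and Ciart 5.99, 6.48 and 6.40, below it.

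The promoters of Per1 and Ciart are shown because both genes belong to the clock list and both hold the E-box CACGTG, the letters bound by the clock's activator pair. Each stretch is the 250 bases before an annotated start in RefSeq (GRCm38.p6), 5′ to 3′ on the gene's strand, with capitals marking CACGTG in the first Per1 stretch and in Ciart, and the cAMP response motif TGACGT in the second Per1 stretch. Per1 has 2 annotated starts, at chr11:69098699-69098948 (plus strand) for the first stretch and chr11:69099902-69100151 (plus strand) for the second. Ciart has 1, at chr3:95882229-95882478 (minus strand).
Per1, first start: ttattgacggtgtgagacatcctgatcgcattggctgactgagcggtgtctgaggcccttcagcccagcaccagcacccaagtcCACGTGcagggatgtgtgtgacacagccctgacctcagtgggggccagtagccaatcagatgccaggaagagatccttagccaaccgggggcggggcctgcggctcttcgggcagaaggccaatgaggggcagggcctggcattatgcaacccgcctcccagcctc
Per1, second start: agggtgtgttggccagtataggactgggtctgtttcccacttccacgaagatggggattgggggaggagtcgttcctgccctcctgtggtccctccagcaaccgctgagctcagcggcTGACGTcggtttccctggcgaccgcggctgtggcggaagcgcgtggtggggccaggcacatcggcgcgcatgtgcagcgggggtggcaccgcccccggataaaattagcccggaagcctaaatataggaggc
Ciart: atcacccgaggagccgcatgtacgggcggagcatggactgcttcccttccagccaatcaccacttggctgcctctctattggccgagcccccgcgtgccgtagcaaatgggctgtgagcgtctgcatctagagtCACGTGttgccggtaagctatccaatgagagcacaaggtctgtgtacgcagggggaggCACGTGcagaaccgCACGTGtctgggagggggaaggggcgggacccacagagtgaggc
Ciart held CACGTG 3 times, with its first letter 116 bases before the start, and the first Per1 stretch held it 1 time, 166 bases before the start. Searched on both strands, CACGTG was in 6.02% of all 32851 promoters of this length, and TGACGT in 6.47%. Counted by gene, 6.86% of 27025 genes had CACGTG in a promoter, and 3 of the 14 clock list genes in the table did (Ciart, Per1 and Tef). A match is a description of letters, and binding was not measured.

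Glucocorticoid targets, the genes that the stress hormone induces in liver, share Per1 with the clock list. Of 21 measured members 17 were higher, with a median of 0.20. At an unadjusted p under 0.05, 3 were higher and 0 lower, and 5 were higher with groups that did not overlap. Over all genes 2.72% were higher at that p and 5.6% higher without overlap. The count of 3 fell to 1 without water replicate 2 or without G12 replicate 3. Without G12 replicate 1 the median was 0.30. Tsc22d3, the glucocorticoid-induced leucine zipper, read 11.27, 10.93 and 10.91 with water and 11.70, 11.51 and 11.74 with G12 (0.61 ± 0.28). Zbtb16, a zinc finger repressor, was higher by 0.94 ± 0.43, but its water mice ranged from 7.70 to 9.66 and overlapped the G12 mice. Ddit4, an inhibitor of mTOR signalling, was higher by 0.87 ± 0.47. Immediate early genes, 18 measured, had a median of 0.25, and 15 of them were higher. Without G12 replicate 1 that median was 0.05 and 10 were higher. Maff was the only one of them at an unadjusted p under 0.05 (0.64 ± 0.26).

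Heat shock proteins and cytosolic chaperones keep other proteins folded. Of 26 measured members 21 were higher with G12, and the median was 0.23. At an unadjusted p under 0.05, 6 were higher and 0 lower, and 7 had groups that did not overlap, all higher. Over all genes 2.72% were higher at that p and 5.6% higher without overlap. Hsph1, a nucleotide exchange factor of HSP70, read 10.23, 9.97 and 9.26 with water and 10.73, 10.64 and 10.52 with G12 (0.81 ± 0.23), and its second probe gave 0.83 ± 0.25. All G12 mice were above all water mice. Hsp90aa1, the inducible HSP90, read 11.79, 11.28 and 10.89 against 11.99, 11.82 and 11.99 (0.61 ± 0.26). The lowest G12 mouse lay just above the highest water mouse. Ahsa1, the activator of the HSP90 ATPase, was higher by 0.39 ± 0.14, the heat shock factor Hsf2 by 0.57 ± 0.22, Hspa4l by 0.43 ± 0.16 and Chordc1 by 0.43 ± 0.21. Leaving out single mice moved the count of 6 to between 2 and 8. It was 2 without water replicate 3, the lowest water mouse for Hsph1 and Hsp90aa1, and 4 without water replicate 2. The list's median was 0.11 on slide 5 and 0.33 on slide 1. Its highest summed log2 level came from a water mouse, replicate 1, at 16.25, against 15.90 to 16.15 in the G12 mice.

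Targets of ATF4, the factor of the amino acid and integrated stress response, had a median of 0.28 over 15 members, 13 of them higher. Ppp1r15a, which restores translation after eIF2 phosphorylation, read 8.43, 8.35 and 8.53 with water and 9.09, 8.71 and 9.27 with G12 (0.59 ± 0.19). The groups did not overlap. Vldlr was higher by 0.54 ± 0.25. The list of p53 targets and growth arrest had 12 of 15 members higher and a median of 0.15. At an unadjusted p under 0.05, 4 were higher (2.72% over all genes). Gadd45b, a stress sensor of MAP kinases, read 7.98, 7.97 and 7.11 with water and 8.90, 8.70 and 8.41 with G12 (0.98 ± 0.33), and Gadd45g was higher by 1.01 ± 0.59. Trp53inp1 (0.76 ± 0.29), Plk3 (0.73 ± 0.33) and Mdm2, the ligase that restrains p53 (0.35 ± 0.17), were the others. Without G12 replicate 1 the p53 median was 0.04 and the count was 2. The count was 0 without water replicate 3 and 1 without G12 replicate 3. Of 23 genes of protein folding in the endoplasmic reticulum 15 were higher with a median of 0.03. Herpud1 and the sensor kinase Ern1 were the 2 at an unadjusted p under 0.05, both higher (2.72% over all genes). Ern1 read 6.27, 6.16 and 6.18 against 7.01, 6.41 and 7.03 (0.61 ± 0.21), below the median gene at 8.03.

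**Figure D2:**
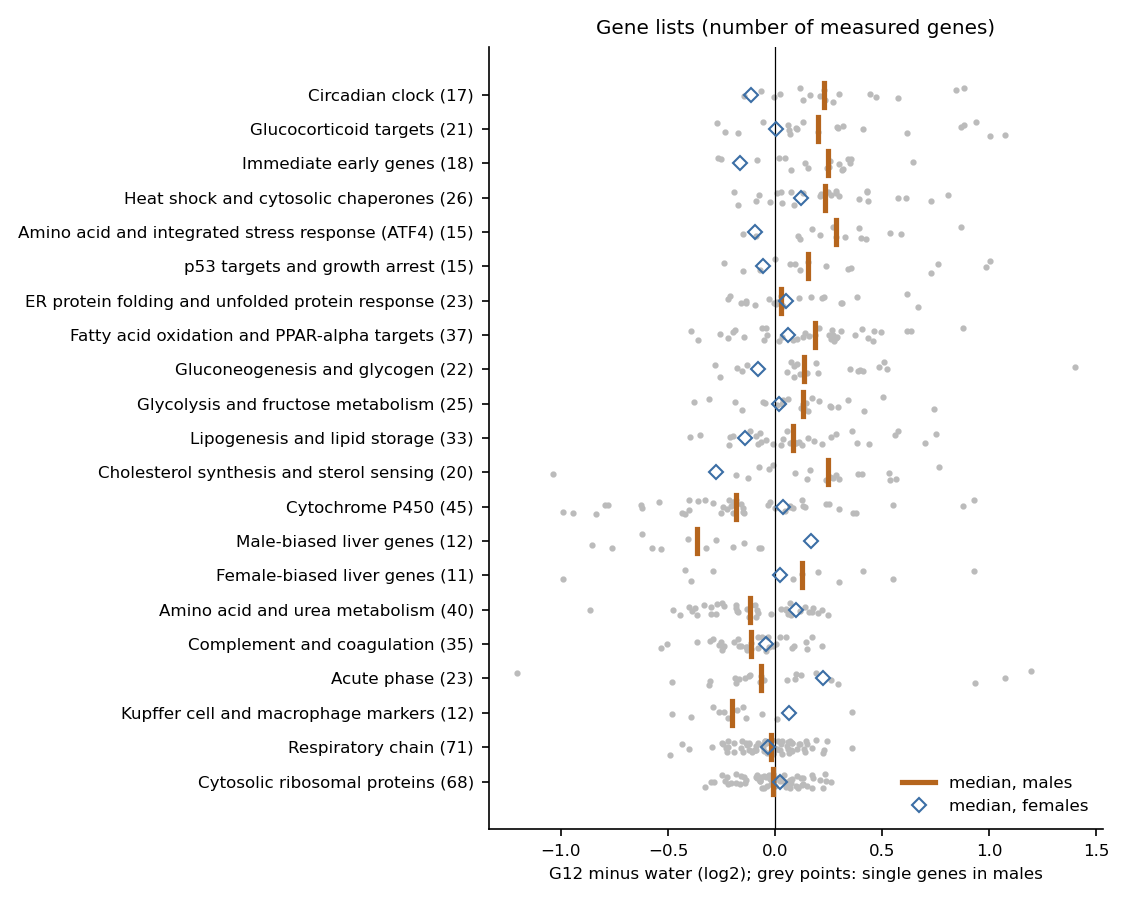
Difference between G12 and water (log2, x axis) for 21 gene lists (y axis, number of measured genes in parentheses), with a grey point for each gene in males, a bar for the male median and an open diamond for the female median. Male medians run from -0.36 (male-biased liver genes) to 0.28 (ATF4 targets), and those of the respiratory chain and ribosomal protein lists lie at -0.02 and -0.01.

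In energy metabolism, genes of fatty acid oxidation and PPAR-alpha had a median of 0.19 over 37 members, 26 of them higher. At an unadjusted p under 0.05, 4 were higher and 0 lower (2.72% and 1.21% over all genes). Beside Cyp4a14 the 4 were Aldh3a2, which oxidises fatty aldehydes (0.64 ± 0.27), the peroxisomal thiolase Acaa1a (0.46 ± 0.21) and the medium-chain dehydrogenase Acadm (0.46 ± 0.21). Acaa1a and Acadm had overlapping groups. The count of 4 was 1 without G12 replicate 2, and 2 without G12 replicate 3, water replicate 1 or water replicate 2. Gluconeogenesis and glycogen genes were higher in 17 of 22 (median 0.13, and 0.22 without G12 replicate 1). At an unadjusted p under 0.05, 3 were higher (2.72% over all genes), and 1 was without water replicate 3, G12 replicate 2 or G12 replicate 3. Ppp1r3g, a glycogen-targeting subunit of protein phosphatase 1, read 9.78, 8.91 and 8.11 with water and 10.79, 9.98 and 10.25 with G12 (1.40 ± 0.67), with wide spread in the water mice. Foxo1, a factor that drives glucose production in fasting, was higher by 0.51 ± 0.23 on one probe and by 0.70 ± 0.20 on the other, and its coactivator Ppargc1a by 0.52 ± 0.27. Gys2, liver glycogen synthase, was higher by 0.40 ± 0.19.

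Glycolysis and fructose genes were higher in 19 of 25 (median 0.13). Pfkfb3, which makes the activator of phosphofructokinase, read 7.71, 7.72 and 7.69 with water and 8.02, 8.78 and 8.54 with G12 (0.74 ± 0.26). These 3 water mice were nearly identical and all G12 mice lay above them. The water males of control 2 were not alike, at 7.64, 8.57 and 8.95, from below to above the G12 range. In lipid synthesis 21 of 33 genes were higher (median 0.09). Acaca, the carboxylase that makes malonyl-CoA, read 7.87, 8.06 and 8.13 against 8.29, 8.67 and 8.82 (0.57 ± 0.21), and Mlxipl, the carbohydrate-responsive factor ChREBP, was higher by 0.70 ± 0.34 with overlapping groups. Mttp, which loads lipid onto apolipoprotein B, read 10.40, 10.49 and 10.40 against 10.76, 10.93 and 10.94 (0.45 ± 0.16). Its groups did not overlap.

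Genes of cholesterol synthesis and sterol sensing had a median of 0.24, with 14 of 20 higher, while Insig2 of the same list was the one member lower at an unadjusted p under 0.05. Fdft1, squalene synthase, was the one member higher at that p (0.53 ± 0.25). Sqle, the next enzyme, differed by 0.77 ± 0.56.

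Cytochrome P450 genes were more often lower. Of 45 measured, 16 were higher, and the median was -0.18. At an unadjusted p under 0.05 there were 2 higher and 5 lower (2.72% and 1.21% over all genes). Cyp2c37 read 11.16, 11.15 and 10.99 with water and 9.77, 10.24 and 10.47 with G12 (-0.94 ± 0.28), and its second probe gave -0.90 ± 0.31. All G12 mice were lower, G12 replicate 1 most. Cyp2c54 differed by -0.78 ± 0.24 (other probes -1.13 and -1.06), Cyp2c29 by -0.62 ± 0.22, Cyp4v3 by -0.54 ± 0.24 and Cyp3a44, a form that is higher in females, by -0.99 ± 0.32. Cyp3a44 read 8.27, 8.29 and 8.20 with water and 6.42, 7.46 and 7.91 with G12. In the water males of control 2 it read 6.14, 7.06 and 6.00, within or below the G12 range. Its lowest G12 value again came from G12 replicate 1. Without that mouse the list's median was -0.01, and Cyp2c37, Cyp2c54 and Cyp3a44 differed by -0.75, -0.61 and -0.57. Beside Cyp4a14, Cyp39a1, an oxysterol hydroxylase, was higher by 0.93 ± 0.34, with overlapping groups. The Cyp2c and Cyp3a genes have close relatives, and cross-hybridisation among them was not tested.

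All 12 measured genes of the male-biased liver list were lower in the G12 males, with a median of -0.36, against 49.6% of all genes. At an unadjusted p under 0.05, 2 were lower, and 3 had groups that did not overlap. Over all genes 1.21% were lower at that p and 4.64% lower without overlap. Nudt7, a peroxisomal coenzyme A diphosphatase, read 10.56, 10.88 and 11.13 with water and 10.18, 9.82 and 10.27 with G12 (-0.76 ± 0.22; second probe -0.71 ± 0.17). C6, a component of the complement membrane attack complex, read 8.72, 9.06 and 8.86 against 8.60, 8.16 and 8.28 (-0.53 ± 0.21). Mup21, a major urinary protein, differed by -0.85 ± 0.61. Without G12 replicate 1 the median was -0.50 and 3 of the 12 were higher. The median over single slides was -0.35 on slide 5 and -0.35 on slide 1. Female-biased genes, 11 measured, had a median of 0.13 with 7 higher. Their median was 0.29 without G12 replicate 1, -0.07 without G12 replicate 2 and -0.01 without G12 replicate 3. Ghr, the growth hormone receptor, whose pulses of ligand set the sex pattern of liver genes in mice, read 11.24, 11.66 and 11.22 against 10.73, 11.00 and 10.89 (-0.50 ± 0.19; second probe -0.20 ± 0.30). Its target Igf1 differed by -0.43 ± 0.23.

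Hepatocytes also handle nitrogen and secrete most plasma proteins. Amino acid and urea genes were higher in 14 of 40 (median -0.12, and -0.03 without G12 replicate 1). Got1, the cytosolic aspartate aminotransferase, read 12.96, 13.03 and 13.37 with water and 12.09, 11.95 and 12.74 with G12 (-0.86 ± 0.30). The groups did not overlap. Complement and coagulation genes were higher in 9 of 35 (median -0.11), and in 16 of 35 (median -0.06) without G12 replicate 1. Acute phase genes were higher in 10 of 23 (median -0.07), and in 16 of 23 (median 0.11) without that mouse. Hamp, the iron hormone hepcidin, read 11.88, 12.25 and 11.52 against 10.13, 10.05 and 11.83 (-1.21 ± 0.46), so that 2 G12 mice were low and 1 was within the water range. Saa2 (1.19 ± 1.13) and Lcn2 (1.07 ± 1.11) differed by no more than about their standard errors.

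In RNA handling, 56 spliceosome and RNA-binding genes had a median of -0.01. At an unadjusted p under 0.05, 5 were higher and 1 lower (2.72% and 1.21% over all genes). Ythdc1, the nuclear reader of methylated adenosine, was higher by 0.45 ± 0.16, Hnrnpm by 0.38 ± 0.16, Rbm25 by 0.34 ± 0.15, Rbm5 by 0.33 ± 0.15 and Hnrnpa3 by 0.44 ± 0.21. Rbm3, the cold-induced RNA-binding protein, read 10.69, 10.72 and 10.61 with water and 10.16, 10.13 and 10.41 with G12 (-0.44 ± 0.15; second probe -0.49 ± 0.28). All its G12 values were lower. The 71 respiratory chain genes and 68 ribosomal protein genes had 0 and 1 members at that p, and medians of -0.02 and -0.01.

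Markers of other cells were measured beside these genes. Kupffer cell and macrophage markers were higher in 2 of 12 (median -0.20), none at an unadjusted p under 0.05. Lower, non-overlapping groups were seen for 4 (Vsig4, Adgre1, Timd4 and Cd5l), and for 4.64% of all genes. Adgre1 (6.35 to 6.69 in the 6 mice) and Timd4 (5.94 to 6.15) were dim beside the median gene, at 8.03. Vsig4, a complement receptor of Kupffer cells, read 9.56, 9.73 and 9.89 against 9.18, 9.05 and 9.51 (-0.48 ± 0.27). Their summed log2 level was 12.6 to 12.7 in the water mice and 12.3 to 12.5 in the G12 mice. Erythroid markers were higher in 0 of 7 (median -0.17). The cholangiocyte list had 0 measured members.

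Pancreatic acinar markers gave the largest differences of all. Ctrb1, chymotrypsinogen B1, read 6.89, 6.96 and 7.25 with water and 15.70, 11.51 and 12.07 with G12, and Amy2a5, pancreatic amylase, 8.96, 8.85 and 8.85 against 13.55, 9.94 and 10.55. All G12 males were above all water males, and replicate 1 was highest in both. The differences were 6.06 ± 1.83 (95% interval 2.25 to 9.87) and 2.46 ± 0.79, and the second Amy2a5 probe gave 5.93 ± 1.75. Amy1, the amylase that liver also makes, read 12.18, 12.05 and 12.46 against 14.43, 12.84 and 12.92 (1.17 ± 0.45). Without replicate 1 the 3 differences were 4.76 ± 2.00, 1.36 ± 0.75 and 0.65 ± 0.45. The amylase genes are near-identical copies, and cross-hybridisation between them was not tested.

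The same transcripts were scattered over the other livers of the chicory experiment. Ctrb1 read 6.62, 11.23 and 11.55 in female control 1, 13.08, 14.48 and 5.76 in female G12, 6.67, 14.97 and 6.02 in female G35, and 6.75 to 6.87 in male G35. High values thus occurred in 2 of the 3 female water mice. In the 12 livers of the inulin experiment it lay between 6.48 and 7.5. Ctrb1 and Amy2a5 were the 2 measured members of the 22 listed acinar markers, and their summed log2 level was 9.19 to 9.27 in the male water mice and 11.93 to 15.99 in the G12 males. Its part in the other differences between G12 and water was not tested.

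**Figure D3:**
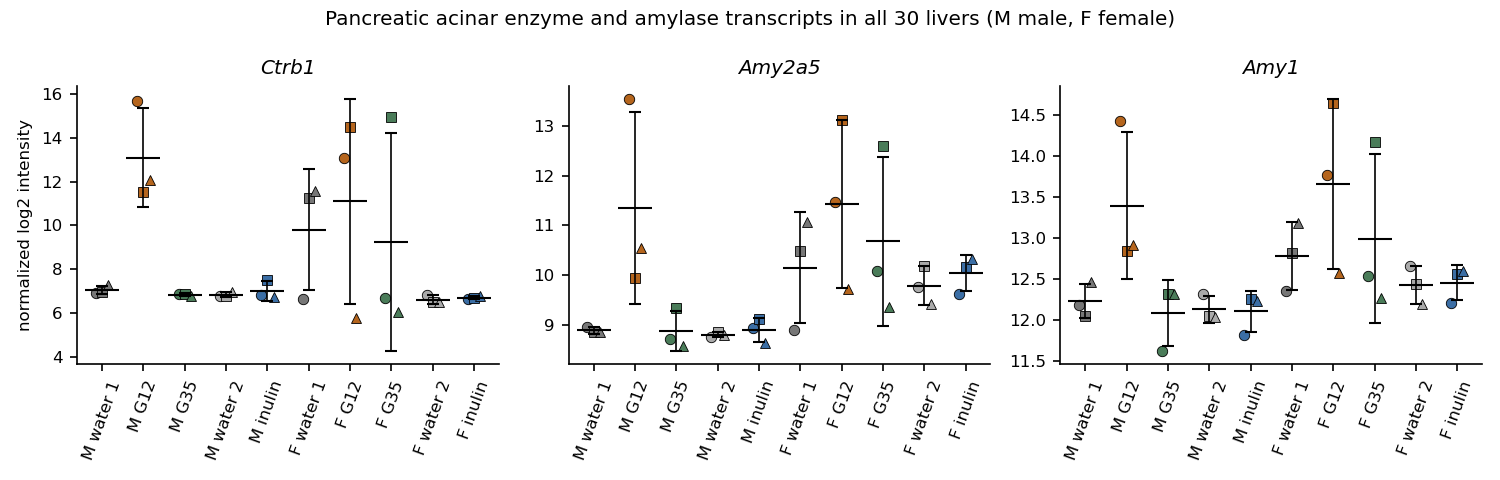
Normalised log2 intensity (y axis) of Ctrb1, Amy2a5 and Amy1 in all 10 groups (x axis; M male, F female, water 1 and water 2 the controls of the chicory and inulin experiments), 1 point per mouse with the mean and SD. The 3 G12 males lie above every other male for Ctrb1, and high values also occur in single females given water 1, G12 or G35.

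Whether males and females differed in their G12 minus water difference was tested directly, with 3 genes past an adjusted p of 0.05 (0.0333% of 8996). At an unadjusted p under 0.05 there were 9.28% of genes, 5.36% higher and 3.92% lower in males. Per1 was one of them. In females it read 9.91, 9.23 and 9.61 with water and 8.66, 9.32 and 8.77 with G12, so the female difference was -0.66 against 0.88 in males. Female water mice were high and the 2 female groups overlapped. The difference between the sexes was 1.55 ± 0.29 (adjusted p 0.0493, limma). With replicate number as a block no gene was called (lowest adjusted p 0.0573), and Per1 had an adjusted p of 0.0679.

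The other called genes were Tob2, an antiproliferative regulator of mRNA decay, at 2.27 ± 0.39 (adjusted p 0.0274, limma), and Pfkl, liver phosphofructokinase, at 0.90 ± 0.16 (adjusted p 0.0274, limma). Tob2 read 9.88, 9.77 and 10.12 in female water mice and 8.06, 7.64 and 8.51 in female G12 mice, while the male groups overlapped. Pfkl read 7.87, 7.73 and 7.70 against 7.15, 6.99 and 7.22 in females. On female G12 replicate 2 both probes fall inside a dim area, which took up 39 of the array's 706 windows. With low windows left out, the adjusted p was 0.0799 for Tob2, 0.0876 for Pfkl and 0.0799 for Per1, and no gene was called. Without that array Per1 alone was called, at 1.75 ± 0.28 (adjusted p 0.0240, limma).

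Insig2 had the lowest p on the opposite side. Its female values were 9.97, 10.47 and 10.83 with water and 11.36, 11.36 and 11.19 with G12, a difference of 0.88 against -1.04 in males. In neither sex did the groups overlap, and they lay in opposite order. The difference between the sexes was -1.92 ± 0.41, with an adjusted p of 0.113 (limma), and of 0.0228 with slide as a fixed block. Rgma, a BMP coreceptor (-1.29 ± 0.31, adjusted p 0.174), and Arg1, the urea cycle arginase (-1.43 ± 0.35, adjusted p 0.186), followed. With slide as a fixed block 63 genes were called, 48 higher and 15 lower in males than in females, of which 22 have a probe in the dim area. Among these were Per1, Insig2, Irf2bp2 (adjusted p 0.0174), Cebpb (0.0174), Akap13 (0.0333) and Nudt7 (0.0497). Nudt7 differed by 0.14 in females.

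Several lists had medians on opposite sides of 0 in the sexes. The clock list was at 0.23 in males and -0.11 in females, ATF4 targets at 0.28 and -0.09, cholesterol genes at 0.24 and -0.28, and male-biased genes at -0.36 and 0.17. Over all genes, 27.7% had a male mean that was higher and a female mean that was lower with G12. The female difference was -0.62 for Noct and -0.83 for Lifr.

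**Figure D4:**
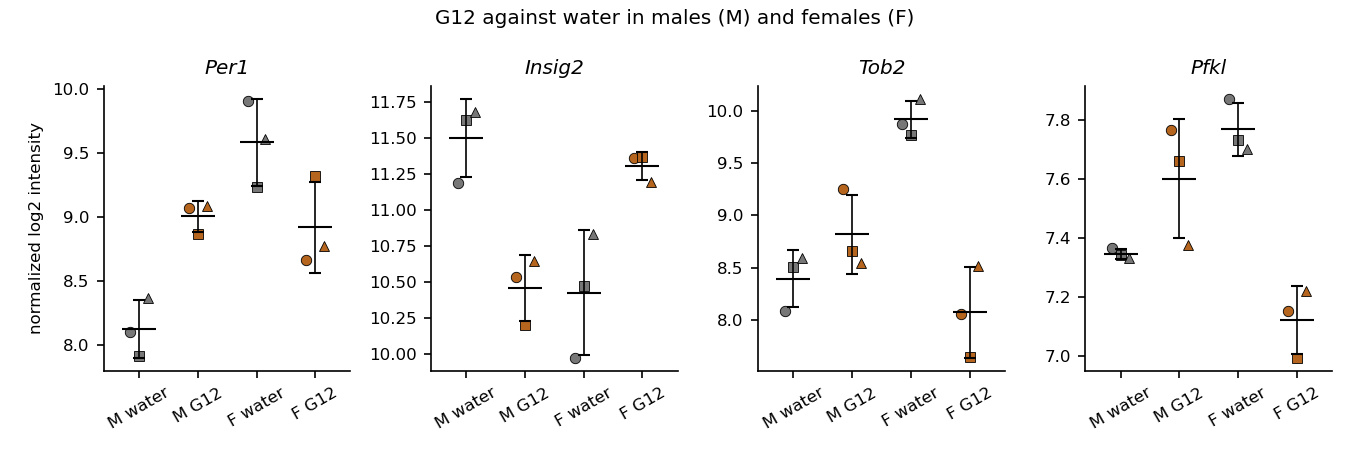
Normalised log2 intensity (y axis) of Per1, Insig2, Tob2 and Pfkl in male (M) and female (F) mice given water or G12 (x axis), 1 point per mouse with the mean and SD. Per1 is higher with G12 in males and has a lower mean in females, Insig2 the reverse, and for Tob2 and Pfkl the female groups are farther apart than the male groups.

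G12 and G35 are different chicory genotypes, given at the same dose and over the same days, and 4 genes differed between the G12 and G35 males at an adjusted p under 0.05 (0.0445% of 8996). At an unadjusted p under 0.05 there were 4.09%, of which 2.47% were higher and 1.62% lower with G12. Cdpf1, a cysteine-rich protein, read 7.44, 7.35 and 7.69 with G12 and 6.40, 6.40 and 6.68 with G35 (1.00 ± 0.15, adjusted p 0.00644, limma). It was thus higher with G12 in every mouse, and the water males, at 7.06, 6.76 and 7.32, lay between. C9orf72, which serves endosomal traffic and autophagy, read 7.99, 7.90 and 8.22 with G12 and 8.84, 9.16 and 8.99 with G35 (-0.96 ± 0.15, adjusted p 0.00644, limma). Here the water males, at 8.15, 7.81 and 7.73, lay with the G12 males.

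C6 read 8.60, 8.16 and 8.28 with G12 and 9.74, 9.98 and 9.15 with G35 (-1.28 ± 0.21, adjusted p 0.00954, limma). Lonrf1, a RING finger protein, read 6.90, 6.79 and 6.80 with G12 and 7.44, 7.64 and 7.48 with G35 (-0.69 ± 0.12, adjusted p 0.0172, limma). In both genes the water males lay between the chicory groups. With replicate number as a block only Cdpf1 was called, at an adjusted p of 0.0333 (limma), and with G35 replicate 2 left out 0 genes were.

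The G12 and G35 differences share the 3 water males, so their values stand side by side without a comparison between them. Against water, Per1 differed by 0.88 with G12 and 1.00 with G35, Insig2 by -1.04 and -0.76, Cyp4a14 by 0.88 and 0.11, Lifr by -0.77 and -0.20, and Nudt7 by -0.76 and -0.04. Compared directly, G12 minus G35 was 0.77 ± 0.22 for Cyp4a14, -0.56 ± 0.22 for Lifr and -0.72 ± 0.22 for Nudt7, none of them past the test. Ppp1r3g differed from water by 1.40 with G12 and 3.15 with G35. List medians against water were 0.23 with G12 and 0.21 with G35 for the clock, and 0.20 and 0.48 for glucocorticoid targets. Those of immediate early genes were 0.25 and 0.31, of cholesterol genes 0.24 and 0.46, and of heat shock genes 0.23 and 0.16. For ATF4 targets they were 0.28 and 0.07, for P450 genes -0.18 and 0.02, for male-biased genes -0.36 and 0.09, and for Kupffer markers -0.20 and 0.17.

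**Figure D5:**
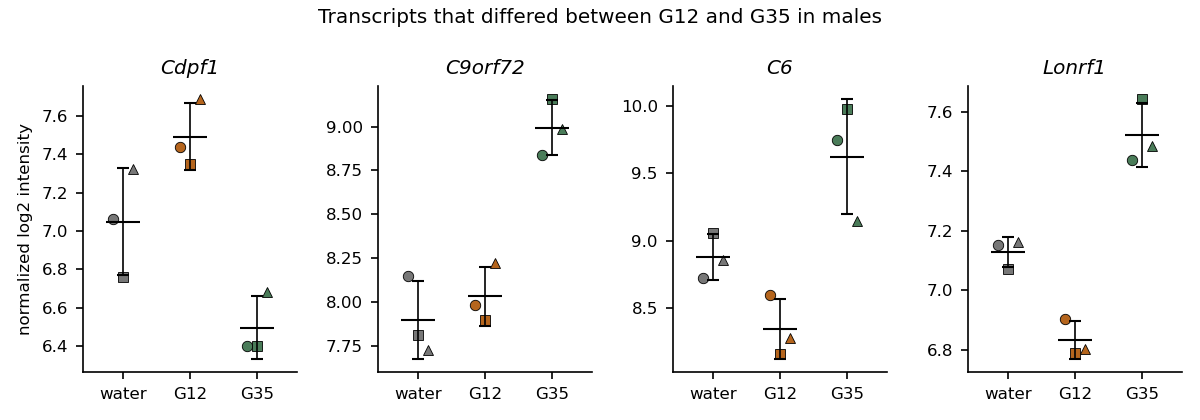
Normalised log2 intensity (y axis) of the 4 genes that differed between G12 and G35 in males, in mice given water, G12 or G35 (x axis), 1 point per mouse with the mean and SD. The G12 and G35 mice do not overlap in any panel, and the water mice lie with G12 for C9orf72 and between the chicory groups for the other 3.

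Males given inulin, set against their own water males, tested how far G12 differed from the fructan, at 6.9 mg per mouse and day, a dose matched to G35. No gene passed (lowest adjusted p 0.140, limma), with 168 genes (1.87%) at an unadjusted p under 0.05, 1.27% higher and 0.6% lower for G12. Noct came first, with a difference of 0.84 for G12 and -1.02 for inulin (1.87 ± 0.35 between them). Mean Noct was 9.85 with G12 and 9.67 with inulin, but 9.00 in control 1 and 10.69 in control 2. The 2 water groups thus lay further apart than the 2 gavage groups. Pfkfb3 differed by 0.74 with G12 and -1.05 with inulin, and Insig2 by -1.04 and 0.47. Tmc7 (0.65 and -0.68), Sgk2 (-0.19 and 0.86) and Foxa1 (-0.33 and 0.60) were the other genes with the lowest p. Tmc7 too had water groups further apart (6.59 and 7.79) than gavage groups (7.25 and 7.12). For Pfkfb3 (8.45 with G12 and 7.33 with inulin) and Insig2 (10.46 and 11.40) the gavage groups lay further apart than the water groups. The median of the clock list was 0.23 for G12 and -0.04 for inulin, and that of glucocorticoid targets 0.20 and -0.26. Medians of P450 genes (-0.18 and 0.07), male-biased genes (-0.36 and 0.02) and Kupffer markers (-0.20 and 0.09) also had opposite signs. Those of cholesterol genes (0.24 and 0.25), ATF4 targets (0.28 and 0.15), heat shock genes (0.23 and 0.11) and immediate early genes (0.25 and 0.08) had the same sign.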

How the data were processed

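Liver RNA was labelled with Cy3 and hybridised to one-colour Agilent arrays, 1 mouse per array. Per the submitters' processing notes, Agilent Feature Extraction read the arrays. The version and the signal column are not given in the sources used here. The authors deposited 1 linear intensity per probe and array, in whole numbers of at most 65535 and not normalised between arrays, where normalised values had been assumed when the tests were planned. They were corrected with normexp (offset 50), quantile normalised and put on the log2 scale. Of 15505 probes 12544 had 1 gene symbol, 0 several and 2961 none; the probe with the highest mean stood for each of 8996 genes, and 1869 genes had other probes. All 30 arrays entered 1 limma 3.58.1 fit (R 4.3.3) with a mean for each of the 10 groups, leaving 20 residual degrees of freedom, with Benjamini-Hochberg adjustment over all genes. Differences are given with the fit's standard error; values without one are differences of group means, other probes or alternative fits, and list medians carry no test.

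Named genes are those with the lowest p in each direction (10 without and 5 with slide as a block), the largest differences without overlap (5), 3 each way in the other comparisons, and up to 4 members per list plus members past 1 log2, of which those with most bearing are printed. Members of lists named beyond these were chosen after their values were seen. The comparison, the 46 lists and the rule were chosen with earlier results of these data known. Residuals of male control 1 and G12 mice with the same replicate number correlated at 0.121, 0.318 and 0.642; mice with different numbers correlated at -0.526 to 0.390, and 2 of the 3 same-number pairs share a slide. The numbers come from the labels and count as pairs here only because all 3 values pass 0.1; the main comparison is unpaired, with the replicate block as an alternative. Alternatives were each mouse left out, slide and replicate blocks, other normalisations, probe and gene filters, fit options and, added after seeing the data, low signal windows (8 by 8 features on a layout inferred from feature numbers, median deviation under -0.5) left out. Promoters came from RefSeq (GRCm38.p6). Probes without a symbol enter only a count.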

Additional observations from a re-analysis of the deposited data

Results flagged for a closer look

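In 3 genes the difference between G12 and water was itself different in males and females by the test across all genes. Tob2 differed by 2.27 on the log2 scale between the sexes, Per1 by 1.55 and Pfkl by 0.90, each higher in males. In Per1 the male G12 minus water difference was 0.88 and the female one -0.66, and the male groups did not overlap. In Tob2 and Pfkl most of the value came from the females (-1.85 and -0.65). Both probes fall inside the dim area of female G12 replicate 2. With low windows left out the difference was 2.06 for Tob2 and 0.84 for Pfkl, and neither passed the test. Per1 did not pass either with those windows left out (adjusted p 0.0799, limma) or with the replicate block (adjusted p 0.0679, limma). Of the 2961 probes without a symbol 0 were called in males by limma (88 at an unadjusted p under 0.05).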

How the results depend on the processing

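The count of 0 called genes between G12 and water in males held under all 21 alternatives (lowest adjusted p 0.237, with slide as a fixed block), while genes at an unadjusted p under 0.05 numbered 240 to 609. The 91 genes tracked in that comparison were picked from these same arrays, largely for a low p, so their direction was likely to hold. Of them 90 kept it under every alternative run, which lends them no support, and the share over all genes was not computed. The exception was H2-Q10, which ran from -0.62 to 0.069 when single mice were left out and was above 0 without male G12 replicate 3; the cause was not tested. Of 42 lists with alternatives 21 kept the sign of their median throughout, among them clock (0.15 to 0.24), heat shock (0.18 to 0.31), ATF4 (0.20 to 0.39), Kupffer (-0.27 to -0.13) and male-biased genes (-0.50 to -0.25). The P450 median ran from -0.28 to -0.01. Scaling to the 75th percentile moved the median of all genes by -0.08 and median centring by -0.07.

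For the difference between the sexes, 3 genes were called, against 0 with only the arrays of the groups compared, of the experiment, with the replicate block or with low signal windows left out. The count was 1 with 75th percentile scaling and with median centring (Tob2 in both). It was 5 with limma's trend option, 29 when slide was random and 63 when it was fixed. With the replicate block and slide together it was also 1, but that gene was Lzts3, and Tob2, Pfkl and Per1 were not called. Leaving out single mice gave 0 to 50, the highest without female control 1 replicate 2 (50) and 6 without male G12 replicate 2. It was 0 without any one male control 1 mouse, male G12 replicate 1, female control 1 replicate 1 or 3, or female G12 replicate 1. For G12 against G35 the 4 calls became 6 with slide as a random block, 0 with only the arrays of the groups compared and with replicate block and slide together, and 1 with the arrays of the experiment, the replicate block or 75th percentile scaling; leaving out single mice gave 0 to 3. That count was 1 without male G12 replicate 2 or 3 or male G35 replicate 1. It was 0 when male G35 replicate 2 was left out. For G12 against inulin the 0 calls became 7 with replicate block and slide together, 1 when slide was random, and 0 to 8 without single mice (7 without male control 2 replicate 1, 8 without male inulin replicate 3, and 1, Noct, without male control 1 replicate 1 or male inulin replicate 2). The causes of these changes were not tested.

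With 3 mice in each group, a difference that missed the test is not shown to be absent. Quantile normalisation without background correction called the same numbers of genes in all 4 comparisons. For G12 against inulin, the fit on the arrays of 1 experiment was not run separately, since both experiments enter. Promoter letters, list counts and medians carry no test.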

Other observations

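Further groups of liver genes were measured in the G12 males. Targets of NRF2 and conjugation enzymes were higher in 14 of 38 (median -0.09), with 1 higher at an unadjusted p under 0.05. Without G12 replicate 1 that median was 0.036 and 21 of 38 were higher. The gene at that p was Gclc, the catalytic subunit of glutathione synthesis, at 0.52 ± 0.24. Bile acid genes were higher in 12 of 24 (median 0.00), in 17 of 24 (median 0.13) without G12 replicate 1 and in 6 of 24 (median -0.09) without G12 replicate 3. Fgfr4, the liver receptor of the intestinal hormone FGF15, was the only one of them at that p (0.46 ± 0.20). Nuclear receptors and coregulators were higher in 23 of 35 (median 0.12), none at that p. Interferon response genes (median -0.04 over 26) and cytokine genes (median -0.02 over 17) had none either.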
